A study of Mus musculus with 3 samples.

Results

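The genes described here were the 46 mouse genes of the transforming growth factor beta (TGF-beta) and bone morphogenetic protein (BMP) pathways, chosen by name out of 54532 genes in the deposited tables. They comprised 9 ligands, 12 receptors and co-receptors, 8 SMADs, 4 latent TGF-beta binding proteins, 6 extracellular antagonists and follistatin family members, 2 SKI co-repressors and 5 target genes. RNA-seq was available for 3 libraries, 1 per condition, all from MICFs, the cardiac fibroblasts of adult Myh6-mCherry mice isolated 5 days after myocardial infarction and kept in culture for 4 weeks. MICFs without virus were the reference. GMTMS-iCMs were induced cardiomyocytes made with viruses for Gata4, Mef2c, Tbx5, Myocd and Sall4. In GMTMM the last factor was Mesp1. Both kinds of iCMs were grown with doxycycline (1 μg/ml) and sorted for mCherry, which marks cells in which the Myh6 promoter is active, and for each cocktail 5 sorted samples were mixed before RNA extraction. The MICFs were dissociated after the same time but carried no virus, so the sort, the virus and the factors cannot be told apart in a comparison with them. Sall4, a factor of GMTMS and not of GMTMM, had 0 counts in MICFs but 1190 in GMTMS-iCMs, with 1060 in the library labelled GMTMM, and Mesp1 had 0 counts in all 3 libraries. The label was kept, and every direction drawn from that library carries this doubt.

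TGF-beta ligands are secreted in a latent form, bound to latent TGF-beta binding proteins in the matrix, and once released they signal through a pair of serine/threonine kinase receptors, type II and type I, to SMAD2 and SMAD3. Activins use the same SMADs through their own receptors, whereas BMPs act mainly through SMAD1, SMAD5 and SMAD9, and SMAD4 is the partner of both branches. In the injured heart TGF-beta is best known for driving fibroblasts towards matrix-producing myofibroblasts, and blocking it is known to favour reprogramming of fibroblasts into iCMs. ID genes are common targets of the BMP branch, and SMAD6, SMAD7, SKI and SKIL act as brakes on SMAD signalling.

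The total counts were between 10624118 and 11904484 per library, at which a count of 0 allows up to 3 counts, or 0.252 to 0.282 CPM (counts scaled to the library total). By mean FPKM the most abundant of the 46 genes were Id2, Id3, Tgfbr2, Fstl1 and Tgfb1. There was 1 library per condition, so no replicate error, SD or p-value can be given for any difference. Levels are given as counts and as FPKM, which is per gene length. A difference is that of log2 (FPKM + 1) after quantile normalization over the 3 libraries, and a gene was called higher or lower when it was over 1. Folds are ratios of the deposited FPKM, without quantile normalization, with 95% Clopper-Pearson intervals that cover counting error only. Genes with a mean of at least 10 counts over the 3 libraries were compared, which left 14415 genes and 42 of the 46. The 4 that did not pass were Bmp7, Bmpr1b, Grem1 and Nog, which had between 0 and 13 counts in any library.

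The labelled cell types were checked against markers. Of 8 cardiomyocyte markers, 4 (Myh6, Actn2, Ryr2 and Pln) had 0 counts in MICFs, and the list summed to 1.60 FPKM in MICFs and 681 in GMTMS-iCMs, with 243 in the library labelled GMTMM. The 8 fibroblast markers summed to 843 FPKM in MICFs and 151 in GMTMS-iCMs, with 1813 in the library labelled GMTMM, and none was at 0. Endothelial markers, 10 genes, summed to 529, 13.7 and 378 FPKM in that order, and 10 macrophage markers to 8704, 18090 and 8450 FPKM. Macrophage genes were thus abundant in every library, and Lyz2 was among the 3 genes with the highest FPKM in each. In bulk RNA, fewer cells of a type and less RNA per cell cannot be told apart, and this holds for every result below.

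The promoter sequences of 5 of the genes are shown because they stand for 2 patterns described below. Against MICFs, Tgfb2, Inhbb and Eng were called lower in GMTMS-iCMs and not in the library labelled GMTMM, where Eng fell just short (-0.95), and Inhba and Id4 were called higher in the library labelled GMTMM and not in GMTMS-iCMs. Each run is the 250 bases before the RefSeq start on GRCm38.p6, 5′ to 3′ on the strand of the gene, and capitals mark CAGAC or its reverse complement GTCTG, which holds the SMAD box, and the GC-rich SMAD motif GGCGCC. None of the 250 bases lies in an annotated GENCODE exon of the gene itself, whereas the windows of Id2 and Id3 do with 161 and 250 of their bases and are not printed. The Tgfb2 window is chr1:186705990-186706239 (minus strand), that of Inhbb chr1:119422249-119422498 (minus), that of Eng chr2:32646345-32646594 (plus), that of Inhba chr13:16011601-16011850 (plus) and that of Id4 chr13:48260866-48261115 (plus).
Tgfb2: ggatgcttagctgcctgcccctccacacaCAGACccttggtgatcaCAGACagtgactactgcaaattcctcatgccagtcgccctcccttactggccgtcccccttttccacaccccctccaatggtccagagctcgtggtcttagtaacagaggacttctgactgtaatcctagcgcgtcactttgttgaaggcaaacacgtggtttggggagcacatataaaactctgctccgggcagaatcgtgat
Inhbb: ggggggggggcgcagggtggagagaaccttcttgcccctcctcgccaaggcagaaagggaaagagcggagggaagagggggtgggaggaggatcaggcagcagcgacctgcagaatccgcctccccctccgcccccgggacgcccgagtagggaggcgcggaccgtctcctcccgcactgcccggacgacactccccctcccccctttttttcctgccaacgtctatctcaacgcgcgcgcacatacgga
Eng: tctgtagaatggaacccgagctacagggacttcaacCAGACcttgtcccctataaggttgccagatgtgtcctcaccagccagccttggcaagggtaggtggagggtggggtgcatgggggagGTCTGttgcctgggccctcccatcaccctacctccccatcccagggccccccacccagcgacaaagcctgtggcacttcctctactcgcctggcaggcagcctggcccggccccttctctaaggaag
Inhba: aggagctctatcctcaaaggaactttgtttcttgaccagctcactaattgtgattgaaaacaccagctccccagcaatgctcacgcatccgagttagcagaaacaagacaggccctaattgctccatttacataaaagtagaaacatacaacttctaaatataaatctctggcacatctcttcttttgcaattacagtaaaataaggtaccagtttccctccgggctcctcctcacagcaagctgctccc
Id4: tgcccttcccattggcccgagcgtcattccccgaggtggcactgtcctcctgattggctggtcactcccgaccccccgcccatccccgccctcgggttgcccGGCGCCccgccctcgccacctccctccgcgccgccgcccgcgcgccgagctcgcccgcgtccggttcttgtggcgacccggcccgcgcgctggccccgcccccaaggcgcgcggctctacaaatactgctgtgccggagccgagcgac
Tgfb2 and Eng each held 2 matches of CAGAC, Id4 held 1 match of GGCGCC, and the windows of Inhbb and Inhba held neither. RefSeq windows were at hand for 34 of the 46 genes. CAGAC on either strand was found in 16 of the 34 (47.1%), against 45.8% of all 27025 genes with a window, and GGCGCC in 12 (35.3%), against 10.8%. GGCGCC holds only G and C, and the windows were not matched for base composition, so its excess cannot be read as one of SMAD motifs. The motifs do not overlap in letters. A match is a description of the sequence, not a binding site.

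In GMTMS-iCMs against MICFs, 3 of the 46 genes were higher and 12 were lower. Of all genes compared, 9.25% were higher and 9.19% lower (18.4% in either direction), so the lower calls, 28.6% of the 42 genes that passed the filter, stood above the background and the higher calls, 7.14%, did not. The genes higher were Skil, Id2 and Acvr1b. The median difference was -0.53, beside -0.07 for all genes. Without quantile normalization the split was 5 higher and 11 lower, and in CPM 2 higher and 21 lower, where the median of all genes itself shifted to -0.44.

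Against MICFs, the library labelled GMTMM had 7 of the genes higher and 3 lower, beside 6.67% and 3.57% of all genes (10.2% in either direction). The 7 were Skil, Id2 and Acvr1b, shared with GMTMS-iCMs, and Inhba, Ltbp2, Smad7 and Id4. Those lower were Id1, Tgfbr2 and Bmp4. The median difference was 0.01, beside -0.08 for all genes. Without quantile normalization the split was 7 higher and 1 lower, beside 7.72% and 2.48% of all genes. Both comparisons use the same MICF library.

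Set directly against the library labelled GMTMM, GMTMS-iCMs had 19 of the genes lower and 1, Skil, higher, where 9.63% of all genes were lower and 6.22% higher (15.9% in either direction). The 19 genes were 45.2% of the 42, and 30 of the 42 (71.4%) were lower at any size of difference, beside 44.6% of all genes. The median difference was -0.81, beside 0.06 for all genes. Over the 3 libraries, 26 of the 42 genes were lowest in GMTMS-iCMs (61.9%, against 35.7% of all genes) and 19 were highest in the library labelled GMTMM (45.2%, against 24.0% of all genes). In that direct comparison 8 of 8 fibroblast markers and 9 of 10 endothelial markers were lower in GMTMS-iCMs too, and 6 of 10 macrophage markers and 7 of the 7 cardiomyocyte markers past the filter were higher, and their part in the result was not tested.

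**Figure D1:**
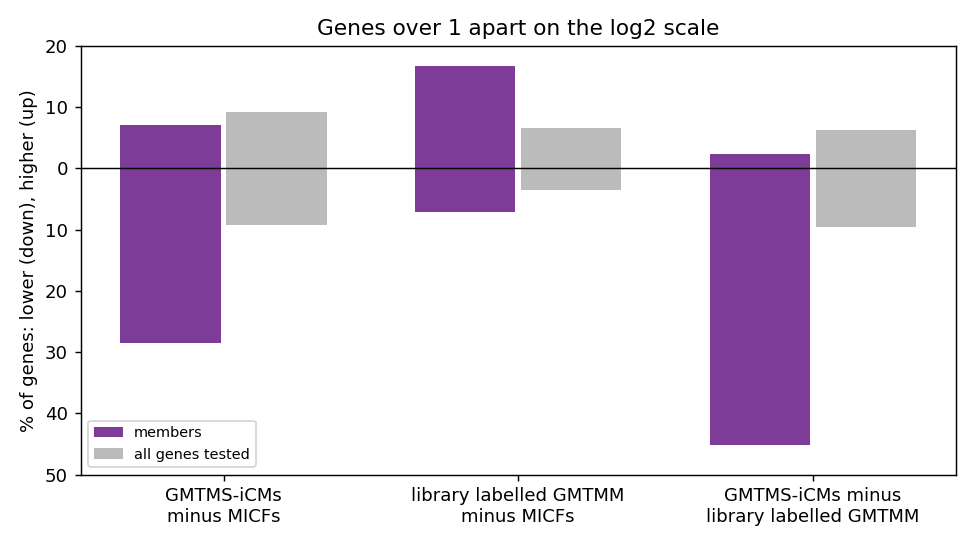
Share of genes, in percent, over 1 higher (bars up) or lower (bars down) on the log2 scale in each of the 3 comparisons, for the 42 pathway genes past the filter (purple) and for all 14415 genes compared (grey). The longest purple bars are the 45.2% lower in GMTMS-iCMs than in the library labelled GMTMM and the 28.6% lower in GMTMS-iCMs than in MICFs, beside grey bars of 9.63% and 9.19%.

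**Figure D2:**
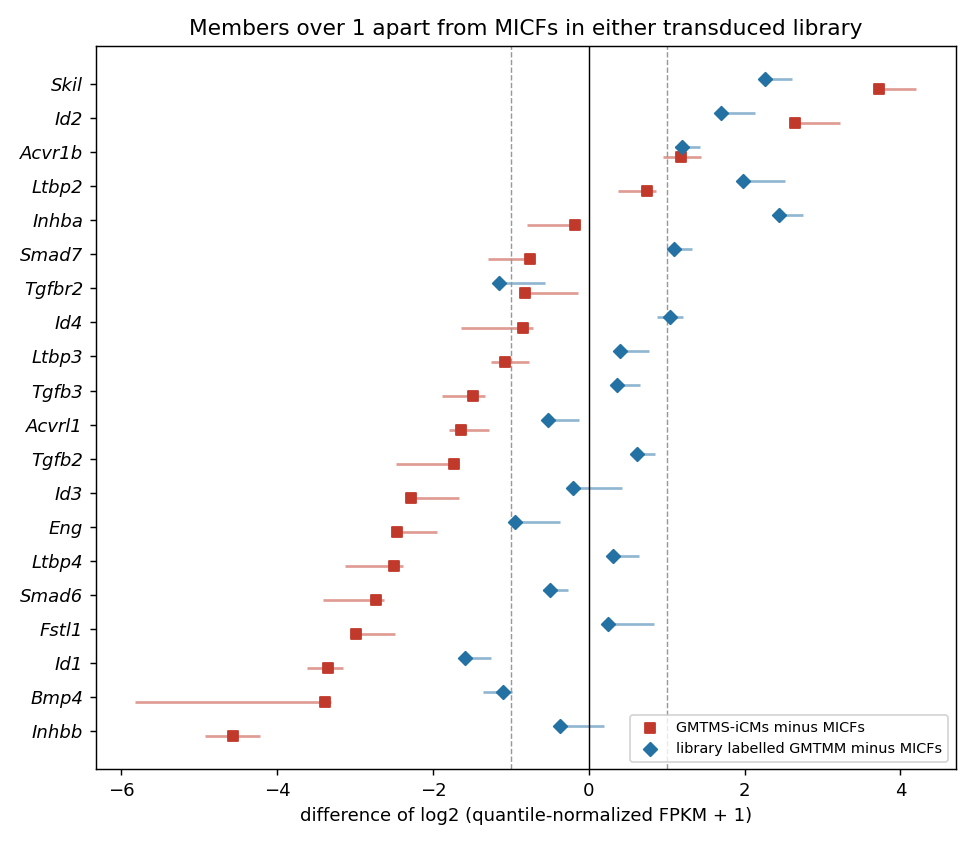
Difference from MICFs, on the log2 (quantile-normalized FPKM + 1) scale, of the 20 genes over 1 apart in either iCM library, as squares for GMTMS-iCMs and diamonds for the library labelled GMTMM. The horizontal lines span the values under the other scalings, and the dashed lines mark 1 and -1. Skil and Id2 lie above 1 in both, Id1 below -1 in both, and Inhbb, Fstl1, Smad6 and Ltbp4 below -1 in GMTMS-iCMs alone.

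Among the ligands, 4 of 9 were lower in GMTMS-iCMs than in MICFs and none higher, beside 9.19% lower and 9.25% higher of all genes. Inhbb, which encodes the beta B subunit of activin B and inhibin B, had 5193 counts in MICFs but 143 in GMTMS-iCMs, with 4845 in the library labelled GMTMM (84.8, 3.62 and 97.5 FPKM). GMTMS-iCMs alone were low, with a difference of -4.57 from MICFs and an FPKM 23.4-fold lower (19.9 to 27.9). Inhba, which encodes the beta A subunit, went another way, with 408, 206 and 2244 counts (4.44, 3.47 and 30.1 FPKM). Here the library labelled GMTMM was high, with a difference of 2.44 from MICFs and a 6.78-fold higher FPKM (6.09 to 7.55), and GMTMS-iCMs were 0.18 below MICFs, under the call. Inhbb thus made up 95.03% (94.5 to 95.5) of the summed FPKM of both subunits in MICFs, 51.0% (45.7 to 56.3) in GMTMS-iCMs and 76.4% (75.5 to 77.3) in the library labelled GMTMM. The difference of Inhbb between that library and MICFs, -0.36, was under the call and positive without quantile normalization (0.20).

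The 3 TGF-beta ligands did not move together in GMTMS-iCMs. Tgfb2 had 915 counts in MICFs but 139 in GMTMS-iCMs, with 1344 in the library labelled GMTMM (10.98, 2.58 and 19.9 FPKM), and Tgfb3 had 816, 190 and 1049 (16.8, 6.05 and 26.5 FPKM). Both were low in GMTMS-iCMs alone, by 1.73 and 1.48 on the log2 scale against MICFs and by 2.36 and 1.84 against the library labelled GMTMM. Tgfb1, the main ligand of injured tissue and also made by macrophages, had 3473, 5059 and 3866 counts (47.9, 108 and 65.6 FPKM). It was highest in GMTMS-iCMs, with a difference of 0.58 from MICFs that was under the call on the main scale and over it without quantile normalization (1.16). Its share of the summed FPKM of the 3 ligands, which does not depend on the scaling between libraries, was 63.3% (61.9 to 64.7) in MICFs, 92.6% (91.8 to 93.3) in GMTMS-iCMs and 58.6% (57.3 to 59.8) in the library labelled GMTMM. The exons of Tgfb3 overlap genes on the opposite strand over 12.4% of their bases, and since the handling of strand is not given in the sources used here its counts are uncertain to that extent.

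Bmp4, a BMP ligand of the mesenchyme and endothelium, had 334 counts in MICFs but 3 in GMTMS-iCMs, with 124 in the library labelled GMTMM (10.3, 0.144 and 4.72 FPKM). It was lowest in GMTMS-iCMs and also low in the library labelled GMTMM, with differences of -3.38 and -1.10 from MICFs, the latter -0.98 and under the call without quantile normalization. With 3 counts in GMTMS-iCMs, the ratio of 71.9 had a counting interval from 24.4 to 350. Bmp2 and Bmp6 differed from MICFs by -0.74 and -0.63 in GMTMS-iCMs and by -0.15 and 0.02 in the library labelled GMTMM, all under the call (Bmp6 was -1.35 in GMTMS-iCMs in CPM), and the last 2 signs turned under other scalings. Bmp7 had 3, 4 and 6 counts.

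**Figure D3:**
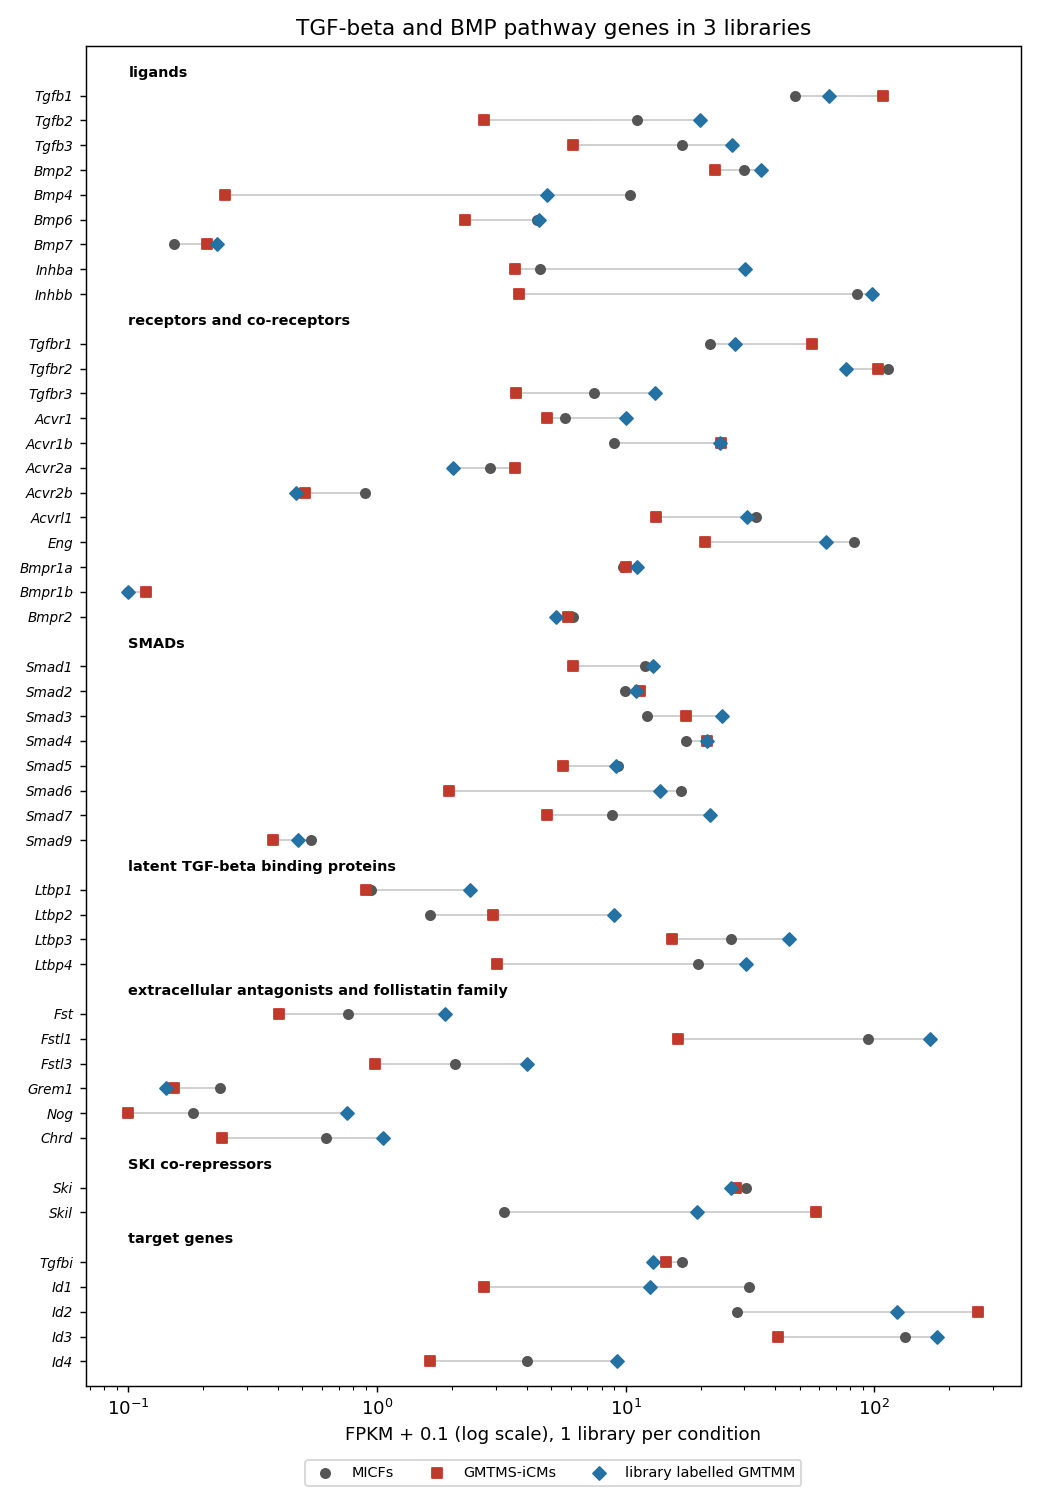
FPKM + 0.1 of each of the 46 genes on a log axis, with a circle for MICFs, a square for GMTMS-iCMs and a diamond for the library labelled GMTMM, grouped by role, 1 library per condition. GMTMS-iCMs lie far to the left of both others for Bmp4, Inhbb, Smad6, Ltbp4, Fstl1 and Id1, and far to the right of MICFs for Skil and Id2.

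Of the 12 receptors and co-receptors, 11 of which passed the filter, 1 was higher and 2 were lower in GMTMS-iCMs than in MICFs. Beside the 9.25% higher and 9.19% lower of all genes compared, these counts are too small to be read as a result. Both lower genes belong to the endothelial branch. Eng encodes endoglin, a co-receptor for TGF-beta and BMP9, and Acvrl1 encodes ALK1, the type I receptor it works with. Eng had 4829 counts in MICFs but 783 in GMTMS-iCMs, with 3014 in the library labelled GMTMM (82.9, 20.8 and 63.7 FPKM). Acvrl1 had 2047, 520 and 1520 (33.4, 13.1 and 30.5 FPKM). Both were lowest in GMTMS-iCMs, by 2.46 and 1.64 on the log2 scale below MICFs, and the differences of the library labelled GMTMM, -0.95 and -0.52, were negative and under the call. The 10 endothelial markers, at a median of -4.81, were all lower in GMTMS-iCMs, and the part of that in the result was not tested.

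Acvr1b, which encodes the activin receptor ALK4, had 563, 989 and 1228 counts in MICFs, the GMTMS-iCMs and the library labelled GMTMM (8.86, 24.1 and 23.8 FPKM). It was higher in both iCM libraries, by 1.19 and 1.20, and the iCM libraries differed from each other by -0.01. In CPM the difference of GMTMS-iCMs was 0.96, under the call. Tgfbr2, the type II TGF-beta receptor and the most abundant receptor of the list, had 13364, 7855 and 7312 counts (113, 103 and 76.5 FPKM). It was called lower in the library labelled GMTMM, by 1.16, though this was -0.56 without quantile normalization. In GMTMS-iCMs Tgfbr2 was 0.81 below MICFs on the main scale and 0.13 below without quantile normalization.

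Tgfbr1, the type I partner, had 2047, 3408 and 2095 counts (21.8, 56.2 and 27.4 FPKM). It was highest in GMTMS-iCMs, 0.93 above MICFs, just under the call, and 1.33 above without quantile normalization. Tgfbr3, the co-receptor betaglycan, had 691, 214 and 993 counts (7.34, 3.52 and 13.0 FPKM) and was called lower in GMTMS-iCMs than in the library labelled GMTMM, 3.69-fold in FPKM (3.18 to 4.30). Neither differed from MICFs by over 1 on the main scale, where GMTMS-iCMs were at -0.83, though other scalings took GMTMS-iCMs as low as -1.49. The type II and type I BMP receptors Bmpr2 and Bmpr1a and the receptors Acvr1, Acvr2a and Acvr2b differed from MICFs by between -0.38 and 0.68 in either iCM library, under the call on the main scale. Bmpr1b had 0, 1 and 0 counts.

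Among the 8 SMADs, the receptor-regulated SMADs and Smad4 were under the call on the main scale. Their differences from MICFs ran from -0.94 for Smad1 in GMTMS-iCMs to 0.76 for Smad3 in the library labelled GMTMM, and Smad2 and Smad4 were within 0.09 of 0 in both. Other scalings took some of them past 1, with Smad1 and Smad5 at -1.41 and -1.19 in GMTMS-iCMs in CPM and Smad3 at 1.01 in the library labelled GMTMM with DESeq2 size factors. The inhibitory SMADs were called on the main scale. Smad6, a target and inhibitor of the BMP branch, had 768 counts in MICFs but 55 in GMTMS-iCMs, with 511 in the library labelled GMTMM (16.7, 1.85 and 13.6 FPKM). It was called lower in GMTMS-iCMs, with a difference of -2.73 and an FPKM 9.01-fold lower (6.85 to 12.1), and was -0.50 from MICFs in the library labelled GMTMM. Smad7, a target and inhibitor of the TGF-beta branch, had 564, 199 and 1150 counts (8.67, 4.74 and 21.8 FPKM). It was highest in the library labelled GMTMM, by 1.10 over MICFs and by 1.85 over GMTMS-iCMs. GMTMS-iCMs were 0.75 below MICFs, under the call, though other scalings took them as low as -1.30. Smad6 made up 65.8% (63.3 to 68.2) of the summed FPKM of both inhibitory SMADs in MICFs, 28.1% (22.4 to 34.4) in GMTMS-iCMs and 38.5% (36.1 to 41.0) in the library labelled GMTMM.

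The latent TGF-beta binding proteins, which tether latent TGF-beta to the matrix, split by library. Ltbp4 had 1814 counts in MICFs but 176 in GMTMS-iCMs, with 2296 in the library labelled GMTMM (19.5, 2.93 and 30.4 FPKM), and Ltbp3 had 1973, 732 and 2741 (26.4, 15.2 and 45.2 FPKM). Both were low in GMTMS-iCMs, with differences of -2.50 and -1.07 from MICFs, the latter -0.76 without quantile normalization. Ltbp2, which does not bind latent TGF-beta, had 181, 214 and 849 counts (1.54, 2.82 and 8.88 FPKM) and was highest in the library labelled GMTMM, by 1.99 over MICFs and 5.78-fold in FPKM (4.92 to 6.82). Ltbp1 was 0.83 above MICFs in that library, under the call, and 1.34 above with a pseudocount of 0.1.

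Of the 6 antagonists and follistatin family members, Fstl1 had by far the most counts. This secreted glycoprotein, made in the heart by fibroblasts and the epicardium, had 6671 counts in MICFs but 733 in GMTMS-iCMs, with 9641 in the library labelled GMTMM (94.3, 16.1 and 168 FPKM). It was low in GMTMS-iCMs alone, with a difference of -2.98 and an FPKM 5.87-fold lower (5.44 to 6.35). Fst and Fstl3, inhibitors that bind activins, had 44, 13 and 95 counts and 69, 20 and 112 counts (0.666, 0.305 and 1.77 FPKM, and 1.96, 0.881 and 3.92 FPKM). Both were lower in GMTMS-iCMs than in the library labelled GMTMM, by 1.05 and 1.30, the former -0.94 and under the call among protein-coding genes only, and neither was called against MICFs. The exons of Fstl3 overlap Prss57 on the opposite strand over 47.3% of their bases, so its counts are uncertain. Chrd, an antagonist that binds BMPs, had 47, 8 and 70 counts (0.522, 0.138 and 0.958 FPKM), lowest in GMTMS-iCMs. At these low levels its differences of -0.39 from MICFs and -0.76 from the library labelled GMTMM were under the call with a pseudocount of 1 and over it with one of 0.1 (-1.30 and -2.10), and its FPKM in GMTMS-iCMs was 6.96-fold lower (3.34 to 16.7) than in the library labelled GMTMM. Of the others, the BMP antagonists Grem1 and Nog had at most 13 counts.

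Among the SKI co-repressors, Skil was higher in both iCM libraries. Skil, which encodes SnoN, a co-repressor of SMADs that is itself induced by TGF-beta, had 439 counts in MICFs but 5246 in GMTMS-iCMs, with 2178 in the library labelled GMTMM (3.15, 58.3 and 19.2 FPKM). The differences from MICFs were 3.73 and 2.26, or 18.5-fold (16.8 to 20.5) and 6.11-fold (5.51 to 6.79) in FPKM. Ski was 0.53 and 0.57 below MICFs, under the call. The share of Skil in the summed FPKM of Ski and Skil was 9.36% (8.54 to 10.3) in MICFs, 67.9% (66.6 to 69.1) in GMTMS-iCMs and 42.2% (40.7 to 43.8) in the library labelled GMTMM.

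The 4 ID genes, which encode helix-loop-helix proteins that hold back basic helix-loop-helix transcription factors, did not move as a group. Id2 had 979 counts in MICFs but 5910 in GMTMS-iCMs, with 3496 in the library labelled GMTMM (27.9, 261 and 123 FPKM), and was higher in both by 2.65 and 1.70, or 9.35-fold (8.74 to 10.0) and 4.40-fold (4.10 to 4.73) in FPKM. Id1 had 519, 28 and 168 counts (31.1, 2.60 and 12.4 FPKM) and was lower in both, by 3.35 and 1.59. So Id1 and Id2 stood on opposite sides of MICFs in both iCM libraries.

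Id3 had 3412 counts in MICFs but 680 in GMTMS-iCMs, with 3727 in the library labelled GMTMM (132, 40.9 and 178 FPKM), and Id4 had 217, 55 and 410 (3.92, 1.54 and 9.12 FPKM). Id3 was low in GMTMS-iCMs, by 2.28, and its difference of -0.20 in the library labelled GMTMM was under the call and positive without quantile normalization (0.43). Id4 was 1.04 above MICFs in that library, just over the call and under it in CPM (0.88). In GMTMS-iCMs Id4 was 0.84 below MICFs, under the call, though other scalings took it as low as -1.64. The leading ID gene by FPKM was Id3 in MICFs and in the library labelled GMTMM, with 67.8% (66.4 to 69.1) and 55.3% (54.1 to 56.4) of the summed FPKM, and Id2 in GMTMS-iCMs, with 85.3% (84.3 to 86.2). Id1 took 15.9%, 0.849% and 3.85% of the sum in MICFs, the GMTMS-iCMs and the library labelled GMTMM. Tgfbi, a matrix protein induced by TGF-beta, was 0.46 and 0.60 below MICFs, under the call.

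Members just past and just short of a difference of 1 were close together. Against MICFs, in GMTMS-iCMs Ltbp3 (-1.07) and Acvr1b (1.19) were just inside and Smad1 (-0.94) and Tgfbr1 (0.93) just outside. For the library labelled GMTMM, Id4 (1.04) and Smad7 (1.10) were just inside and Eng (-0.95) and Ltbp1 (0.83) just outside. Between both iCM libraries, Fst (-1.05) and Acvrl1 (-1.11) were just inside and Id2 (0.96) and Tgfbr1 (0.93) just outside.

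Other genes of the pathway, from lists chosen by function, were set beside these. Among 17 matrix and contractile genes that TGF-beta induces, 11 were lower and 1 was higher in GMTMS-iCMs than in MICFs (median -1.80), while 4 were higher and 1 was lower in the library labelled GMTMM (median 0.54). Of all genes compared, 9.19% were lower and 9.25% higher in GMTMS-iCMs, and 6.67% were higher and 3.57% lower in the library labelled GMTMM. Col3a1, a fibrillar collagen, had 91516 counts in MICFs but 6501 in GMTMS-iCMs, with 117523 in the library labelled GMTMM, and Fn1, fibronectin, had 44154, 4367 and 51606. Both were low in GMTMS-iCMs alone, by 3.82 and 3.30. Snai1, a transcription factor of epithelial to mesenchymal transition, was lower in both, by 3.20 and 1.16. Of the 8 fibroblast markers, 8 were lower in GMTMS-iCMs (median -3.00), among them the collagens Col1a1 and Col1a2 and Postn that are also in this list, and 1 was higher in the library labelled GMTMM (median 0.39), and their part in the result was not tested.

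The 12 genes of latent TGF-beta activation had 2 higher and 5 lower in GMTMS-iCMs and 1 higher in the library labelled GMTMM. Lrrc32, which presents latent TGF-beta on the cell surface, had 3722, 187 and 2830 counts and was lower in GMTMS-iCMs by 3.72. The matrix genes Thbs2 and Fbn1 were lower there by 3.03 and 2.63, and Emilin1 by 2.33. Of 15 further extracellular antagonists, 9 of which passed the filter, 5 were lower in GMTMS-iCMs and none higher, beside 9.19% and 9.25% of all genes. They included the TGF-beta binding proteoglycan Dcn, which is also a fibroblast marker (15789, 1582 and 22671 counts, difference -3.25), and Htra1 (-2.46), Crim1 (-2.09) and Bmper (-1.35). In the library labelled GMTMM 2 of the 15 were higher and 1 lower, beside 6.67% and 3.57% of all genes.

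The shares of all genes beside the lists that follow were 9.25% higher and 9.19% lower in GMTMS-iCMs, and 6.67% and 3.57% in the library labelled GMTMM. Among 25 further genes listed as ligands, 9 of which passed the filter, Gdf3 was just called higher in GMTMS-iCMs (1.00). Gdf6 and Bmp1 were lower there (-2.31 and -2.34), while none of the list was called in the library labelled GMTMM. Bmp1, despite its name and its place in this list, encodes a metalloprotease and not a ligand. Of 9 further receptors and co-receptors, none was called in GMTMS-iCMs, whereas Nrp1 was lower (-1.23) and Rgma higher (1.04) in the library labelled GMTMM. Of 18 SMAD regulators, 17 of which passed the filter, 1 was higher and 1 lower in each iCM library. The counts of called ligands, receptors and SMAD regulators are too small, beside the shares of all genes, to be read as a result. Tgif1, a co-repressor of SMAD2 and SMAD3, had 722, 2219 and 2377 counts and was higher in both iCM libraries, by 1.93 and 1.75. Pmepa1, a TGF-beta target that dampens SMAD signalling, was lower in GMTMS-iCMs (-1.15) and Tab1 in the library labelled GMTMM (-1.10). Of 10 genes that BMP induces, 6 of which passed the filter, 3 of those were lower in GMTMS-iCMs and none higher. Atoh8 had 604, 31 and 396 counts, a difference of -3.04 in GMTMS-iCMs. Hey1 and Msx1 were lower there, by 1.56 and 1.21, and higher in the library labelled GMTMM, by 1.27 and 1.02.

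**Figure D4:**
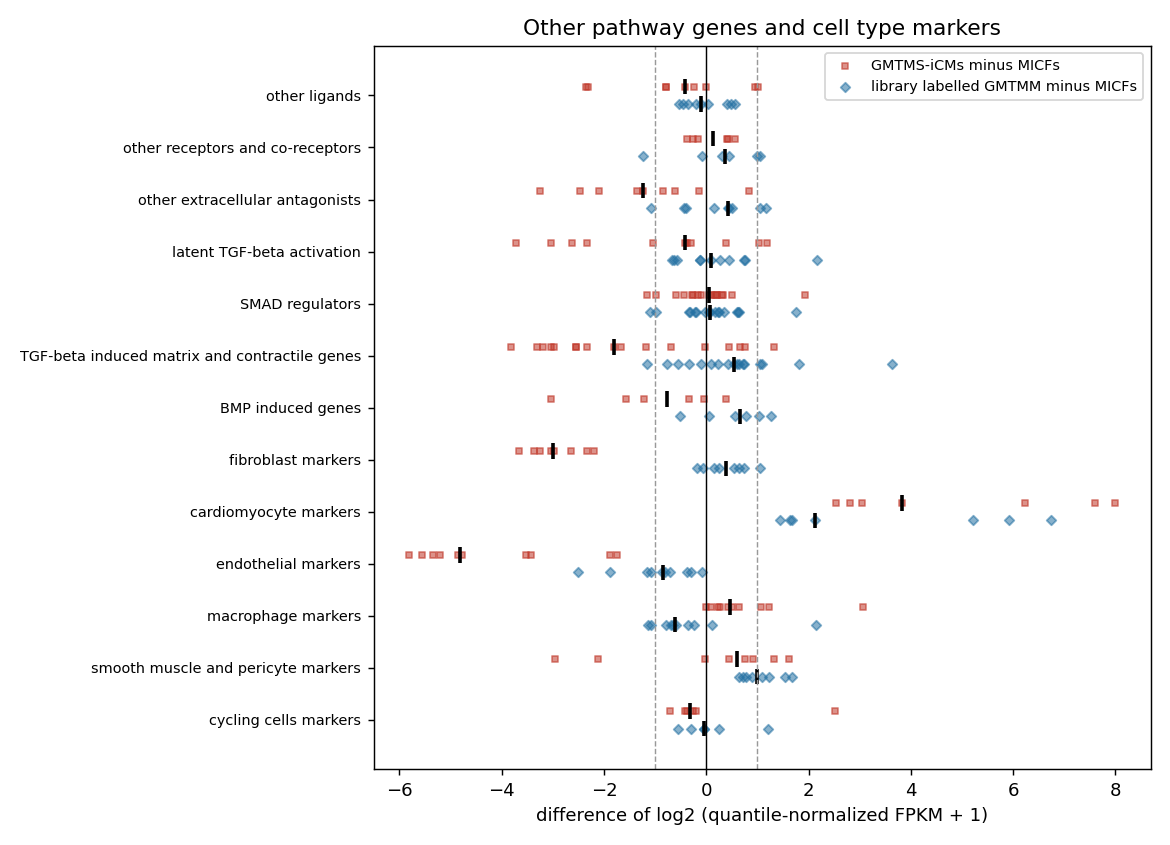
Difference from MICFs on the log2 (quantile-normalized FPKM + 1) scale of each gene past the filter in the lists of other pathway genes and of cell type markers, as squares for GMTMS-iCMs and diamonds for the library labelled GMTMM, with the median of each list as a black bar and dashed lines at 1 and -1. The medians of endothelial and fibroblast markers lie at -4.81 and -3.00 in GMTMS-iCMs, and that of the TGF-beta induced genes at -1.80.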

How the data were processed

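RNA was taken from MICFs, from GMTMS-iCMs and from the library labelled GMTMM and sequenced as 1 library each. The submitters' processing notes name HISAT2 2.0.5 and mm9, whereas the gene coordinates in the tables are those of GRCm38, and 45 of the 46 genes have the coordinates of GENCODE M21 (Smad2 is the exception). How reads were counted, whether strand was used and what became of multiple matches are not given in the sources used here. The authors deposited raw read counts per gene and FPKM. The deposited FPKM had been scaled by effective library sizes of 14389264, 9287868 and 11680913 for MICFs, the GMTMS-iCMs and the library labelled GMTMM, against total counts of 11861773, 10624118 and 11904484. These sizes follow the DESeq2 size factors (1.26, 0.811 and 1.02). The column of MICFs carries an abbreviation and was matched as the only fibroblast sample.

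The FPKM were quantile-normalized across the 3 libraries and transformed as log2 with a pseudocount of 1, the scale of the study, and 3 comparisons were made. Intervals and the floor of 3 counts cover counting error only. The intervals of family shares are 95% intervals by the delta method. No column was left without a sample. The members, lists and tests were chosen with earlier results of these data known. The lists are the roles of the members, 7 lists of other pathway genes and markers of fibroblasts, cardiomyocytes, endothelial cells, macrophages, smooth muscle and pericytes, and cycling cells. Counts and FPKM were printed for members called in at least 1 comparison and for the 5 with the highest mean FPKM, and of each other list up to 4 genes with the largest difference from MICFs. A gene that this rule names is not reported here. Tgfbr1, Thbs1, Furin, Itgav, family shares and promoters to print were chosen after values were seen. Exon overlap was computed on GENCODE M21. Alternatives were DESeq2 size factors, CPM, TMM log2 CPM (prior count 2), protein-coding genes only, a pseudocount of 0.1, a difference over 2, leaving out the quantile step and taking log2 before it. The steps were tested on simulated data. Scalings were computed in R 4.3.3 with edgeR 4.0.16 and DESeq2 1.42.0, everything else in Python 3.11.15 with SciPy 1.17.1, pandas 2.3.3 and numpy 2.4.6, and figures were drawn with matplotlib 3.10.9.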

Additional observations from a re-analysis of the deposited data

Results flagged for a closer look

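Sall4 is not a factor of GMTMM, yet 1060 of its counts were found in the library labelled GMTMM, where MICFs had 0. The summed counts of 4 Y-linked genes were 0 in MICFs and 1630 in GMTMS-iCMs, with 1926 in the library labelled GMTMM, and Xist had 11855, 5279 and 1618 counts in that order. The sex of the donor mice cannot be told apart from the condition in the comparisons with MICFs. Xist also differed between both iCM libraries, so the mix of donor sexes cannot be told apart from the cocktail in their direct comparison either. The part of this in the results for the pathway genes was not tested. The sort, the virus and the pooling of 5 samples differed between MICFs and both iCM libraries.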

How the results depend on the processing

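With 1 library per condition the values carry counting error only, and nothing measures how far a second library would differ. No paired analysis was possible because there was 1 library of each condition. In GMTMS-iCMs against MICFs, genes called higher numbered 3 on the main scale, 5 without quantile normalization, 5 by TMM and 6 by DESeq2 size factors, and genes called lower numbered 12, and 21 in CPM. The median difference was -0.53, and -0.78 with a pseudocount of 0.1, -0.85 by TMM, -0.77 by DESeq2 size factors and -1.04 in CPM. For the library labelled GMTMM against MICFs, genes higher numbered 7, and 11 with a pseudocount of 0.1, 12 by DESeq2 size factors and 2 at a difference over 2, and genes lower numbered 3, and 1 without quantile normalization and 0 over 2. Of all genes, 6.67%, 11.2% and 12.9% were higher in the same order without the last, and 3.57%, and 2.48% without quantile normalization, were lower. The median difference of this comparison was 0.01, and 0.34 without quantile normalization, 0.35 by TMM and 0.38 by DESeq2 size factors. For GMTMS-iCMs against the library labelled GMTMM, genes higher numbered 1, and 3, 2 and 4 without quantile normalization, by TMM and by DESeq2 size factors and 0 over 2. The shares of all genes higher were 6.22%, 6.17%, 9.83% and 11.1% in the same order without the last. Genes lower numbered 19, 25 by TMM and 25 by DESeq2 size factors, beside 9.63%, 18.1% and 17.8% of all genes, and 8 over 2. The median difference of this comparison was -0.81, and -1.07 with a pseudocount of 0.1, -1.20 by TMM, -1.14 by DESeq2 size factors and -1.29 in CPM. The cause was not tested. Of the genes called on the main scale, 13 of 15, 7 of 10 and 19 of 20 were called under all 7 other scalings, in the order of the comparisons above, and the sign was kept for all of them. The calls lost were Acvr1b and Ltbp3 in GMTMS-iCMs, Bmp4, Tgfbr2 and Id4 in the library labelled GMTMM, and Fst between both. Scaling to CPM shifts the median of all genes to -0.44 for GMTMS-iCMs and to -0.26 for the library labelled GMTMM against MICFs.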

Other observations

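Genes of smooth muscle and pericytes and of cycling cells were also counted. The 8 smooth muscle and pericyte markers summed to 241 FPKM in MICFs and 406 in GMTMS-iCMs, with 627 in the library labelled GMTMM, and 2 were higher and 2 lower in GMTMS-iCMs while 4 were higher in the library labelled GMTMM. Of all genes compared, 9.25% were higher and 9.19% lower in GMTMS-iCMs, and 6.67% were higher in the library labelled GMTMM. Of the 6 cycling cell markers, 1, Mki67, was higher in both iCM libraries, with 665 counts in MICFs and 3165 in GMTMS-iCMs, with 1432 in the library labelled GMTMM. The other 5 were not called, and in GMTMS-iCMs all 5 lay below MICFs, with differences of -0.37 for Top2a, -0.42 for Ccnb1, -0.19 for Cdk1, -0.26 for Birc5 and -0.70 for Aurkb. The median of the 6 was -0.32 in GMTMS-iCMs and -0.04 in the other iCM library.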
